A study of Mus musculus with 45 samples.

Results

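Hepatocytes, the main cells of the liver, secrete most plasma proteins and express them under a small group of transcription factors. The genes described here are 41 such genes of the mouse, found by symbol among 55335 genes in both expression tables of the study. They are 11 carriers and binding proteins of plasma, 7 apolipoproteins, 12 genes of coagulation and protease control, 2 hepatokines and 9 transcription factors. RNA of 2 mouse tumour lines grown in 6-well plates was sequenced, in 30 libraries that make 10 groups of 3. Hepa1-6 is a line derived from a mouse hepatoma and CT26 is a colon carcinoma line. In the drug experiment, wild-type Hepa1-6 and CT26 cells were exposed for 48 hours to stk, a compound given no other name and no dose in the labels, or to the solvent DMSO. In the knockdown experiment, cells were taken 24 hours after seeding. There, Hepa1-6 carried a scrambled hairpin RNA or a hairpin against luciferase (shLucif), and CT26 carried sh1, sh2 or sh3, which target Soat1, the gene of a cholesterol-esterifying enzyme, or shLucif. The labels do not say whether a hairpin line is 1 clone or a pool, or whether the 3 libraries of a group came from separate cultures, so p-values measure only the spread between these libraries.

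In the liver, HNF4A, the FOXA proteins, C/EBP alpha and the ONECUT factors bind the control regions of the same secreted-protein genes and of each other, and so form a network that keeps hepatocytes differentiated. Albumin, transferrin, retinol-binding protein, fibrinogen and apolipoprotein B are classical products of this network. Alpha-fetoprotein is made by the fetal liver, is silenced after birth and often returns in liver tumours. Hepatoma lines commonly keep part of the programme and lose the rest.

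The authors deposited FPKM, in which fragments are scaled to the length of the transcript and to the mapped total of the library, so that levels can be set beside each other between genes. The FPKM of a library summed to between 314827 and 335067 in the drug table and to between 320249 and 335813 in the knockdown table, and read totals are unknown. Fold changes are on the scale of log2(FPKM + 1), which understates changes of low genes, and carry a standard error (SE). Genes at 1 FPKM or more in at least 3 libraries were tested with limma, and a call means a p under 0.05 after Benjamini-Hochberg adjustment. No fold is given against a group in which a gene is listed at 0. In bulk RNA, fewer cells that express a gene and less of its RNA per cell cannot be told apart.

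The targeted gene was checked first. Soat1 had 3.29, 3.23 and 3.28 FPKM with sh1, 3.44, 3.55 and 3.41 with sh2 and 2.52, 2.54 and 2.71 with sh3 in CT26, against 19.7, 19.8 and 20.2 FPKM with shLucif. In Hepa1-6, Soat1 had 0.159, 0.182 and 0.0977 FPKM with scramble, against 12.7, 12.8 and 13.6 FPKM with shLucif. With DMSO it had 0.131, 0.158 and 0.129 FPKM in Hepa1-6, against 12.1, 12.2 and 12.5 FPKM in CT26.

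The 3 libraries labelled Hepa1-6 shLucif thus stood apart from the other Hepa1-6 libraries, and this held for many genes. With DMSO, 145 genes outside the lists used here averaged at least 10 FPKM in Hepa1-6 and at most 0.1 FPKM in CT26, and 127 genes showed the opposite. Of the 145 genes, 41 reached 10 FPKM in the libraries labelled Hepa1-6 shLucif, 130 did in Hepa1-6 scramble and 0 did in CT26 shLucif. Of the 127 genes of CT26, 42 reached 10 FPKM in the libraries labelled Hepa1-6 shLucif, 0 did in Hepa1-6 scramble and 96 did in CT26 shLucif. Genes of both lines were therefore present in these libraries, at a median of 23.8% of the scramble level for 130 genes of Hepa1-6 and 35.9% of the CT26 shLucif level for 96 genes of CT26. What these libraries contain was not tested further. Hepa1-6 was set against CT26 with DMSO, and with scramble against CT26 shLucif, so that neither contrast holds their values as a group. The second shares a model with them. Without them in the model, a fit chosen after seeing the data, it likewise called 22 genes, 20 of them higher. Results that rest on these libraries name "the libraries labelled Hepa1-6 shLucif".

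Promoters are shown for 4 genes, since they carry the contrast within neighbouring genes described next. Alb and Afp, adjacent on chromosome 5, were both high in Hepa1-6, whereas of the fibrinogen genes on chromosome 3, Fgb was expressed and Fga was near 0. Each sequence runs 5′ to 3′ on the gene's strand from 250 bases before the start of transcription to 50 bases after it (RefSeq, build GRCm38.p6). Capitals mark, on either strand, the string GTTAAT, the FOXA-type string TGTTTGC, the C/EBP-type string TTGCNNAA and the TATA string TATAAA.
Alb, chr5:90460620-90460919, plus strand: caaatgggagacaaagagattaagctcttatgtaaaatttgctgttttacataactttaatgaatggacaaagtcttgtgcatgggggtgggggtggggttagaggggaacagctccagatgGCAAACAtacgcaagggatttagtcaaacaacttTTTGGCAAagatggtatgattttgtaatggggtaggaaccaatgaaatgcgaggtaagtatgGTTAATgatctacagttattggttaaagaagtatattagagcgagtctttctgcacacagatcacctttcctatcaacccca
Afp, chr5:90490464-90490763, plus strand: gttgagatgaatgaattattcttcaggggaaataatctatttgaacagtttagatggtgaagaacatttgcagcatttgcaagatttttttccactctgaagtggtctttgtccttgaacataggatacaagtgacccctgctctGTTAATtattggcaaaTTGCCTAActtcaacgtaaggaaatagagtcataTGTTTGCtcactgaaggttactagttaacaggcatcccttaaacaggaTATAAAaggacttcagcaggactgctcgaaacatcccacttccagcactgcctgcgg
Fgb, chr3:83049814-83050113, minus strand: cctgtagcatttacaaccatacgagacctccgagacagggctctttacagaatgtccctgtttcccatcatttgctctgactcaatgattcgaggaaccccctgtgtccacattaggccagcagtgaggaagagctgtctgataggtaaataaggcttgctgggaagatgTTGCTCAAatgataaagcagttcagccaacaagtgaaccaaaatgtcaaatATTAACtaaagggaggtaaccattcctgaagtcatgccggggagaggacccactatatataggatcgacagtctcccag
Fga, chr3:83025903-83026202, plus strand: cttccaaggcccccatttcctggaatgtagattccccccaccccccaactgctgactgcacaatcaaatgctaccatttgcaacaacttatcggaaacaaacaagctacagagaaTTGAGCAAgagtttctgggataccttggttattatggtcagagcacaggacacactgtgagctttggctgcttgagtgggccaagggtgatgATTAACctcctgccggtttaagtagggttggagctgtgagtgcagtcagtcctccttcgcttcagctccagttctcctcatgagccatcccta

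The promoters of Alb and Afp held GTTAAT and the FOXA and C/EBP strings, and that of Afp also held the TATA string. The promoters of Fgb and Fga held the same pair, GTTAAT and the C/EBP string, and Fgb was expressed whereas Fga was near 0. The promoter of their neighbour Fgg, also near 0, held neither string. RefSeq's promoter table held 35 of the 41 genes, and Kng1, Trf, Hp, Fgl1, Apoc3 and Ttr were not matched. A gene with several promoters was counted when any of them held a string. GTTAAT stood in 14 of the 35 genes (40%), against 8.25% of 27018 genes in the table and 7.1% of its 32841 promoters. TTGCNNAA stood in 15 of the 35 (42.9%), against 12.2% of all genes and 10.8% of all promoters. TGTTTGC stood in 9 (25.7%), against 5.76% and 5.07%, and a second FOXA-type string, TGTTTAC, stood in 4 (11.4%), against 4.05% and 3.65%. TATAAA was found in 11 of the 35 (31.4%), against 15.7% and 13.6%. Of these 11, 10 were among the 20 matched genes that reached 1 FPKM in Hepa1-6 scramble and 1, Vtn, was among the 15 that did not. GTTAAT stood in 9 of those 20 genes and in 5 of those 15, and TTGCNNAA in 10 of the 20 and 5 of the 15. All genes with several promoters (Rbp4, Cp, Apoa2, Hnf4a, Foxa2, Nr5a2 and Prox1) were among the 20, so these splits are not like for like. Of them, Rbp4, Cp, Apoa2, Foxa2, Nr5a2 and Prox1 each held TATAAA in only part of their promoters. The C/EBP palindrome TTGCGCAA, which is a case of TTGCNNAA, the HNF4-type CAAAGTCCA and the ONECUT-type ATCAATCA were found in none of the 35. A second HNF4-type string, TGNACTTTG, was found in 1 gene, Apoa4 (2.86%, against 1.64% of all genes), and a second ONECUT-type string, ATCGAT, in 1, Ambp (2.86%, against 1.02%). Such matches describe letters only and draw nothing about binding.

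In Hepa1-6 with DMSO, 21 of the 41 genes reached 1 FPKM, 11 reached 10 FPKM and 4 reached 100 FPKM. The 4 most abundant were Rbp4, Alb, Igfbp1 and Afp. A further 16 genes were below 0.1 FPKM, among them 5 that were listed at 0 in every library (Apoa4, Apoc3, F7, F10 and Serpina1a). In CT26 with DMSO, 3 genes reached 1 FPKM, namely Foxa1, Afp and Nr1h4, none reached 10 FPKM and 25 were listed at 0 in every library. The 41 genes summed to 983, 948 and 940.2 FPKM in Hepa1-6 with DMSO (0.301%, 0.293% and 0.287% of all FPKM), against 15.0, 13.7 and 13.3 FPKM in CT26 (0.00447%, 0.0041% and 0.004%). Of 10 hepatocyte markers listed for a check of the cell type, 5 reached 1 FPKM in Hepa1-6 with DMSO (Alb, Apob, Foxa2, Hnf4a and Tat) and 5 were below 0.1 FPKM (Ttr, Apoa1, Ahsg, Serpina1a and Cps1). All of these except Tat and Cps1 are among the 41 genes, so the check mostly counts the same values again. The line thus carried part of the hepatocyte programme that the gene set is named after, and CT26 carried none of those markers at 1 FPKM.

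**Figure D1:**
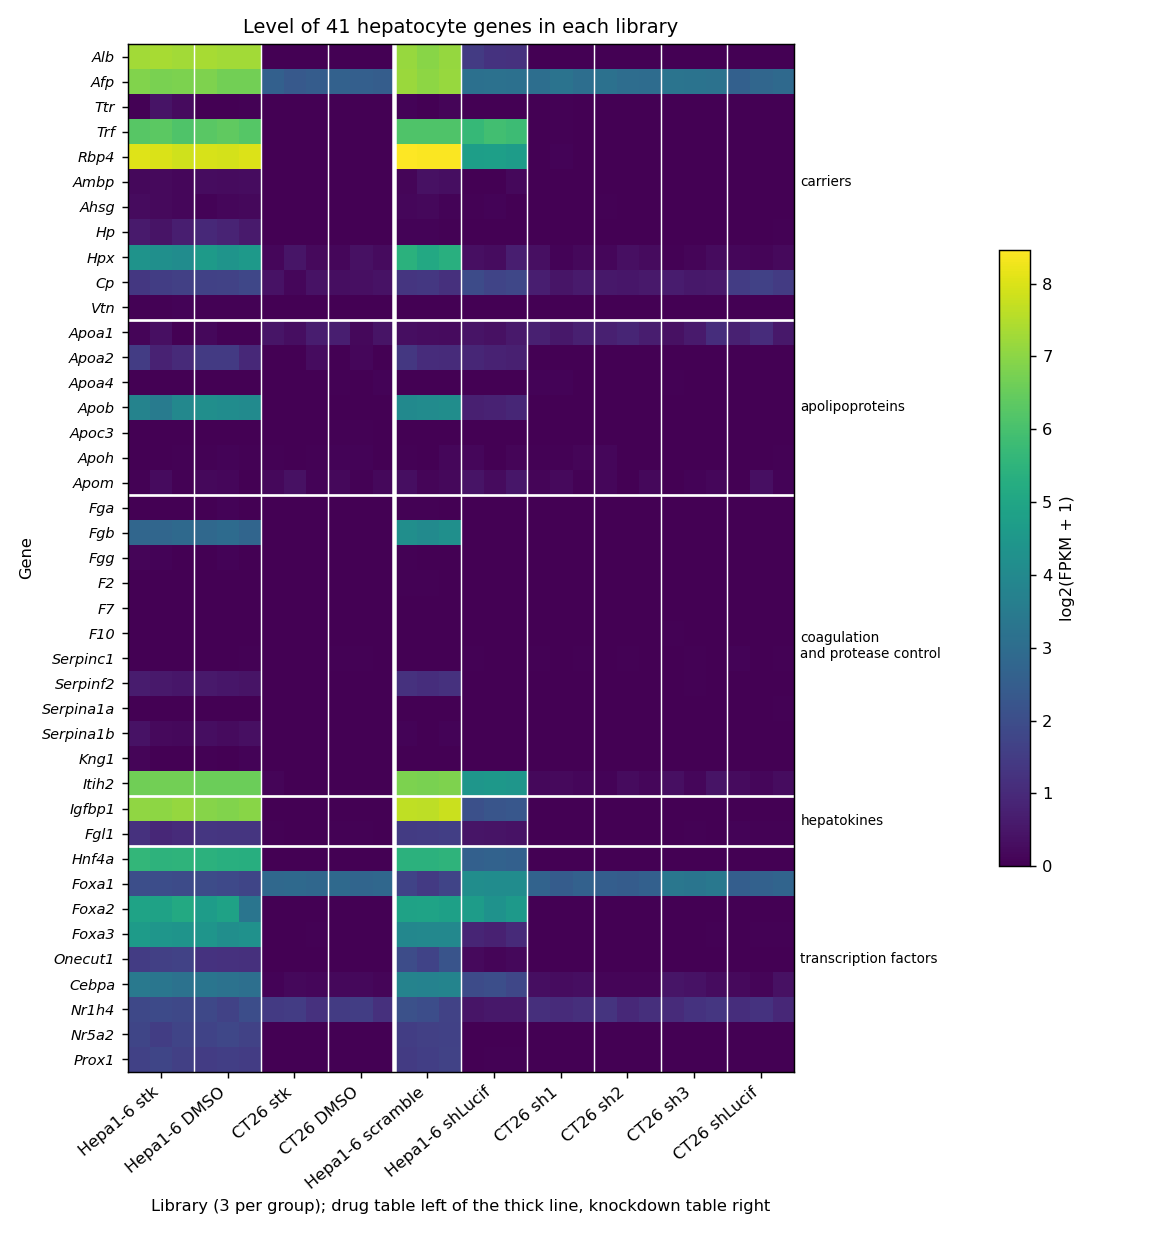
Level of each of the 41 genes (rows, ordered by role) in each of the 30 libraries (columns, 3 per group), as log2(FPKM + 1), with the drug table left of the thick line and the knockdown table right of it. Hepa1-6 libraries with stk, DMSO or scramble show the same subset of genes, up to Rbp4 at 353 FPKM, the libraries labelled Hepa1-6 shLucif show fewer, and CT26 libraries show mainly Foxa1, Afp and Nr1h4. In CT26, Cp averaged 1 FPKM or more only with shLucif, and Apoa1 averaged below 1 FPKM in every group.

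Among the carriers, Rbp4, which carries retinol in plasma, was highest (ENSMUSG00000024990, chromosome 19, 38116629 to 38125281, GRCm38). It had 249, 242 and 259 FPKM in Hepa1-6 with DMSO and was listed at 0 in all CT26 libraries with DMSO. Alb, the gene of albumin (ENSMUSG00000029368, chromosome 5, 90460897 to 90476602), had 164, 156 and 157 FPKM in Hepa1-6 and 0 in CT26. Both genes separated the lines without overlap.

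Afp, the fetal counterpart of albumin (ENSMUSG00000054932, chromosome 5, 90490737 to 90508907), had 114, 102 and 101 FPKM in Hepa1-6, against 5.24, 4.92 and 4.69 FPKM in CT26. It was the only carrier that reached 1 FPKM in CT26 with DMSO, and its log2 fold change was 4.16 (SE 0.0669, limma adjusted p = 3.42e-13). Trf, whose product transferrin carries iron, had 78.6, 84.2 and 73.8 FPKM in Hepa1-6, against 0, 0 and 0.00814 FPKM in CT26. Hpx, whose product hemopexin binds free haem, had 23.4, 19.7 and 22.3 FPKM in Hepa1-6, against 0.103, 0.297 and 0.179 FPKM in CT26 (log2 fold change 4.26, SE 0.103, adjusted p = 1.2e-11). Cp, whose product ceruloplasmin is the copper-bearing ferroxidase of plasma, was low in Hepa1-6, with 2.1, 2.17 and 2.45 FPKM against 0.25, 0.263 and 0.343 FPKM in CT26 (log2 fold change 1.33, SE 0.0905, adjusted p = 1.02e-07). The other 5 carriers stayed below 1 FPKM in every Hepa1-6 library and were listed at 0 in CT26 with DMSO. Hp, which encodes the haemoglobin-binding haptoglobin, came closest, with 0.945, 0.796 and 0.543 FPKM in Hepa1-6 with DMSO. Ambp, Ahsg, Vtn and Ttr averaged 0.206, 0.0922, 0.0317 and 0.0145 FPKM there. Ttr encodes transthyretin, which carries thyroid hormone and the complex of retinol with Rbp4's product, so a pair of proteins that travel together in plasma was unequal at the mRNA level in this line.

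Most apolipoproteins were near 0. Apob, the structural protein of very-low-density lipoprotein (ENSMUSG00000020609, chromosome 12, 7977648 to 8016835), had 17.1, 16.4 and 15.7 FPKM in Hepa1-6 with DMSO and was listed at 0 in CT26. Apoa2, a protein of high-density lipoprotein, had 1.68, 1.72 and 0.975 FPKM in Hepa1-6, against 0, 0.107 and 0 FPKM in CT26. The neighbours Apoa1, Apoc3 and Apoa4 on chromosome 9 did not reach 1 FPKM in either line with DMSO. Apoa1, the main protein of high-density lipoprotein, had 0.122, 0.0437 and 0.0417 FPKM in Hepa1-6, against 0.622, 0.134 and 0.368 FPKM in CT26, and Apoc3 and Apoa4 were listed at 0 in Hepa1-6. Apoh and Apom averaged 0.0425 and 0.0832 FPKM in Hepa1-6, below the minimum for testing.

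In coagulation and protease control, Itih2 stood out (ENSMUSG00000037254, chromosome 2, 10094593 to 10131396). It encodes a heavy chain of the inter-alpha-trypsin inhibitors, which bind hyaluronan in the matrix. It had 94.2, 93.5 and 92.7 FPKM in Hepa1-6 with DMSO and 0 in CT26. Fgb, the beta chain of fibrinogen (ENSMUSG00000033831, chromosome 3, 83040141 to 83049863), had 6.33, 6.83 and 5.81 FPKM in Hepa1-6 and 0 in CT26. Its neighbours did not share this level. Fga, the alpha chain (ENSMUSG00000028001, chromosome 3, 83026076 to 83033627), had 0, 0.0544 and 0.0171 FPKM and Fgg, the gamma chain (ENSMUSG00000033860, chromosome 3, 83007724 to 83015049), had 0, 0.0521 and 0 FPKM in Hepa1-6 with DMSO. Fibrinogen is assembled from all 3 chains.

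The other 8 genes of this role were below 1 FPKM with DMSO. Serpinf2, the inhibitor of plasmin, had 0.489, 0.434 and 0.35 FPKM in Hepa1-6 and 0 in CT26. Serpina1b, which encodes an alpha-1-antitrypsin, averaged 0.226 FPKM in Hepa1-6 and Serpina1a was listed at 0. These paralogs are near-identical and reads can be split between them, so their separate values are uncertain. F2 (prothrombin), Serpinc1 (antithrombin) and Kng1 (kininogen) averaged at most 0.024 FPKM in Hepa1-6, and F7 and F10 were listed at 0.

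Both hepatokines were expressed in Hepa1-6, at very different levels. Igfbp1, which binds insulin-like growth factors in plasma (ENSMUSG00000020429, chromosome 11, 7197782 to 7202546), had 122, 116 and 123 FPKM in Hepa1-6 with DMSO and 0 in CT26. Fgl1, a fibrinogen-like protein that is a ligand of the T cell receptor LAG-3, had 1.54, 1.49 and 1.48 FPKM in Hepa1-6, against 0.0232, 0.0299 and 0 FPKM in CT26.

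All 9 transcription factors reached 1 FPKM in Hepa1-6, in contrast to the secreted proteins, of which 12 of 32 did. Hnf4a, the nuclear receptor at the centre of the network (ENSMUSG00000017950, chromosome 2, 163506808 to 163572910), had 42.9, 39.6 and 38.9 FPKM in Hepa1-6 with DMSO, against 0, 0 and 0.00973 FPKM in CT26. Foxa2, a forkhead pioneer factor (ENSMUSG00000037025, chromosome 2, 148042877 to 148046969), had 24.5, 28.2 and 8.79 FPKM in Hepa1-6 and 0 in CT26, so that 1 DMSO library was well below the other two. Foxa3 had 20.4, 17.2 and 18.4 FPKM in Hepa1-6 and 0 in CT26.

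Cebpa, which encodes C/EBP alpha, had 8.86, 8.18 and 7.46 FPKM in Hepa1-6, against 0.137, 0.128 and 0.0957 FPKM in CT26 (log2 fold change 3.03, SE 0.0741, adjusted p = 1.32e-11). Onecut1, Nr5a2 and Prox1, factors of liver development and of bile acid and sterol control, averaged 1.3, 2.32 and 1.88 FPKM in Hepa1-6 and were listed at 0 in CT26. Nr1h4, the bile acid receptor FXR, had 2.6, 2.18 and 2.99 FPKM in Hepa1-6, against 1.76, 1.91 and 1.24 FPKM in CT26 (log2 fold change 0.45, SE 0.116, adjusted p = 0.00438).

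Foxa1 ran the other way (ENSMUSG00000035451, chromosome 12, 57540628 to 57546916). This forkhead factor, which also acts in the gut and other endodermal epithelia, had 2.95, 2.69 and 2.45 FPKM in Hepa1-6, against 6.52, 5.71 and 6.17 FPKM in CT26. It was lower in Hepa1-6 without overlap (log2 fold change -0.95, SE 0.0618, adjusted p = 7.05e-08). The FOXA family thus split between the lines, with Foxa2 and Foxa3 in Hepa1-6 and Foxa1 higher in CT26.

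With DMSO, 21 of the 41 genes were tested between Hepa1-6 and CT26, of which 20 were called higher and 1, Foxa1, lower in Hepa1-6. Over all 12822 genes tested, 76.8% were called, 38.4% higher and 38.5% lower in Hepa1-6. Most of the 20 passed the minimum only through Hepa1-6 and had to differ, so the count is no support for a difference of the set. The remaining 20 genes were below the minimum in both lines. In the knockdown table, Hepa1-6 scramble against CT26 shLucif called 20 genes higher and 2 lower of 22 tested, against 79.9% of 13129 genes in either direction, 39.1% higher and 40.8% lower. Here too, genes that passed the minimum only through Hepa1-6 were likely to differ, so this count supports nothing about the set. Foxa1 was again lower, with 2.25, 1.69 and 2.33 FPKM in Hepa1-6 scramble against 4.72, 5.24 and 5.64 FPKM in CT26 shLucif (log2 fold change -1.01, SE 0.0805, adjusted p = 1.07e-08). Cp turned round between the tables, since it was lower in Hepa1-6 scramble, with 1.47, 1.56 and 1.24 FPKM against 1.81, 2.12 and 1.74 FPKM in CT26 shLucif (log2 fold change -0.25, SE 0.0731, adjusted p = 0.00505). The tables were normalized separately, and the difference between them was not tested.

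Other genes of the liver programme were split in a similar way in Hepa1-6. Of 51 other secreted hepatocyte proteins found in the tables, 11 reached 1 FPKM in Hepa1-6 with DMSO and 4 did in CT26. Of 11 tested, 10 were called higher and 0 lower in Hepa1-6, against 38.4% of all genes higher and 38.5% lower. Only 3 of the 11 passed the minimum in CT26 alone; a gene that passed through Hepa1-6 alone had to differ, so the count supports nothing about the list. The most abundant was Apoe, a lipoprotein ligand of receptors, with 294 ± 59.8 FPKM in Hepa1-6 and 1.14 ± 0.168 in CT26 (SD, n = 3 each). Of 39 hepatocyte enzymes and transporters, 7 reached 1 FPKM in Hepa1-6 and 3 in CT26. Cps1, the first enzyme of the urea cycle, averaged 0.00328 FPKM in Hepa1-6 and 0.00309 FPKM in CT26. Of 25 other hepatocyte transcription factors, 16 reached 1 FPKM in Hepa1-6 and 10 in CT26, with 10 called higher and 5 lower of 17 tested, of which 10 passed the minimum in CT26 alone.

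Some markers of another epithelium were present in Hepa1-6 beside these genes, and others were not. Of 15 intestinal epithelium markers, 7 reached 1 FPKM in Hepa1-6 with DMSO and 2 did in CT26, and their summed level was 288 to 304 FPKM in Hepa1-6 and 29.6 to 33.5 FPKM in CT26. Cdh17 (112 ± 3.77 FPKM), Krt20 (70.2 ± 1.37), Vil1 (56.4 ± 2.04) and Tff3 (47.6 ± 4.21) led in Hepa1-6, against 0.571 ± 0.178, 26.5 ± 2.09, 0.00464 ± 0.00804 and 0 FPKM in CT26. Of the 15, 4 were listed at 0 in every Hepa1-6 library with DMSO. Tff3 is also on a list of 12 fetal liver and hepatoma genes. Of these 12, 6 reached 1 FPKM in Hepa1-6 with DMSO and 1 did in CT26. In the 8 bile duct markers, 5 reached 1 FPKM in Hepa1-6 and 2 in CT26, with summed levels of 229 to 232 FPKM and 364 to 379 FPKM. Endothelial markers summed to at most 0.132 FPKM in Hepa1-6 and 0.503 FPKM in CT26, and leukocyte markers to at most 8.09 FPKM and 4.3 FPKM, with Cd68 first in both. Fibroblast markers summed to 197 to 199 FPKM in Hepa1-6, led by Dcn, and to 145 to 158 FPKM in CT26, led by Col1a2. Whether other cells contribute to these levels was not tested.

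Setting stk against DMSO asks whether the compound moves these genes. It called none of them in either line. In Hepa1-6, 0 of 21 genes tested were called by limma, against 1.53% of 11426 genes, while 7 of the 21 had an unadjusted p under 0.05. In CT26, 0 of 3 genes tested (Afp, Foxa1 and Nr1h4) were called, against 0.748% of 11358 genes, and none had an unadjusted p under 0.05. The share of all genes with an unadjusted p under 0.05 was not counted, so the 7 say nothing particular of this set. Neither count of calls shows that the genes were unaffected. In simulated data for the Hepa1-6 comparison with 11426 genes, 6% of genes changed 1.2-fold, 58% of genes changed 1.5-fold and 80% of genes changed 2-fold were called. Limma's fold changes of the 21 genes had a median of 0.02 on the log2 scale, and those of all genes 0.0029.

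The most abundant genes were close to each other in both groups. Alb had 156, 163 and 157 FPKM with stk, against 164, 156 and 157 FPKM with DMSO, with overlap and a log2 fold change of 0.0008 (SE 0.0343). Rbp4 had 262, 253 and 232 FPKM with stk, against 249, 242 and 259 FPKM with DMSO, which also overlap.

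Onecut1, the factor HNF6, came closest to the threshold, with 1.85, 2.03 and 2.17 FPKM with stk, against 1.35, 1.28 and 1.26 FPKM with DMSO. The groups did not overlap, and the log2 fold change was 0.39 (SE 0.0722, limma adjusted p = 0.0529, and between 0.00526 and 0.145 over 11 alternatives). With quantile normalization (adjusted p = 0.0464) and in 1 model over all libraries it was called. Igfbp1 had 131, 131 and 138 FPKM with stk, against 122, 116 and 123 FPKM with DMSO, also without overlap (0.15, SE 0.0373, adjusted p = 0.0868, range 0.0391 to 0.209). Apob had 12.9, 10.6 and 14.5 FPKM with stk, against 17.1, 16.4 and 15.7 FPKM with DMSO, and was lower in every stk library (-0.36, SE 0.105, adjusted p = 0.111, range 0.0355 to 0.274). Hpx had 19.2, 17.6 and 16.4 FPKM with stk, against 23.4, 19.7 and 22.3 FPKM with DMSO (-0.28, SE 0.0807, adjusted p = 0.107, range 0.0818 to 0.257). Fgl1 had 1.32, 0.936 and 1.08 FPKM with stk, against 1.54, 1.49 and 1.48 FPKM with DMSO (-0.25, SE 0.0878, adjusted p = 0.158, range 0.0462 to 0.371). None of these values passed the test in the design used.

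Foxa2 had the largest fold change of the set and the largest error. It had 29.1, 28.6 and 33.9 FPKM with stk, against 24.5, 28.2 and 8.79 FPKM with DMSO (0.70, SE 0.389, adjusted p = 0.325). Its fold change ran from 0.21 to 0.99 over 12 alternatives, and the lowest value came without the third DMSO library. Hnf4a had 47.3, 43.2 and 44.3 FPKM with stk, against 42.9, 39.6 and 38.9 FPKM with DMSO (0.15, SE 0.0531, adjusted p = 0.163). Of the 9 transcription factors, 8 had a fold change above 0 and none was called. The share of all genes with a fold change above 0 was not counted, so this lean is not shown to be particular to them.

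In CT26, Foxa1 had 6.31, 6.49 and 6.13 FPKM with stk, against 6.52, 5.71 and 6.17 FPKM with DMSO (0.04, SE 0.06, adjusted p = 0.833). Afp had 5.02, 4.09 and 4.55 FPKM with stk, against 5.24, 4.92 and 4.69 FPKM with DMSO (-0.10, SE 0.0778, adjusted p = 0.617). The 25 genes listed at 0 with DMSO stayed near 0 with stk, where Itih2 (0.08, 0.0173 and 0.0174 FPKM) was the highest of them. The test of a different response in the lines called 0 of 21 genes, against 0.304% of 12822 genes. While 4 had an unadjusted p under 0.05, the share of all genes at that level was not counted. Of these 21, only Afp, Foxa1 and Nr1h4 passed the minimum in CT26 alone, and for the others, below the minimum in CT26, the test mostly repeats the Hepa1-6 values. The difference of the responses was 0.18 for Afp (SE 0.0946, adjusted p = 0.438), 0.07 for Foxa1 (SE 0.0874, adjusted p = 0.77) and 0.03 for Nr1h4 (SE 0.164, adjusted p = 0.959). None of the 9 other lists had a gene called with stk in either line, against 1.53% of all genes in Hepa1-6 and 0.748% in CT26. At most 16 genes of a list were tested in Hepa1-6 and 10 in CT26. At such shares, the lack of calls says nothing particular of the lists.

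**Figure D2:**
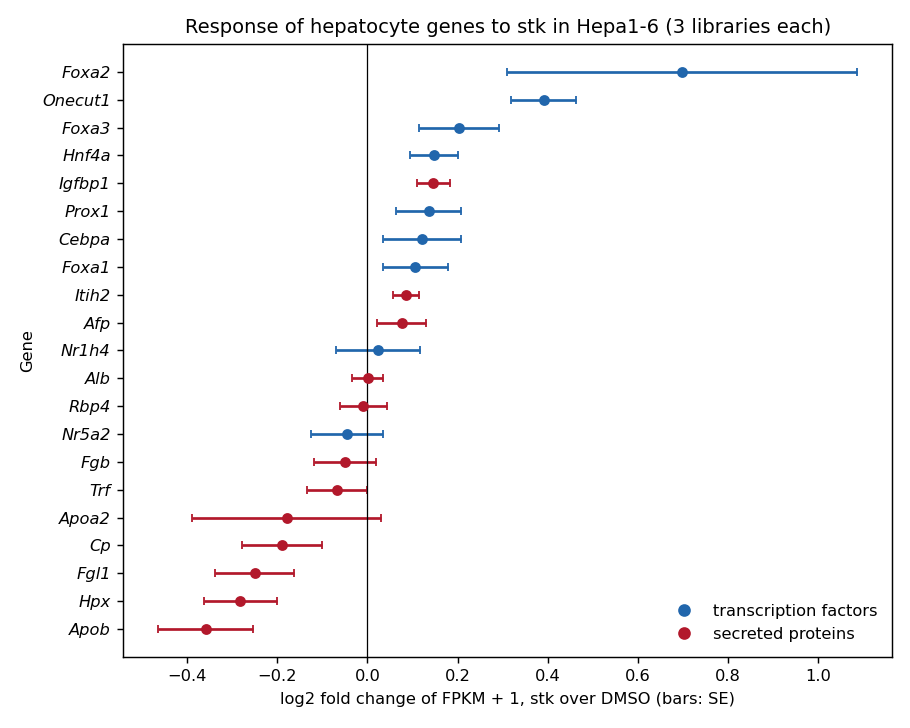
Log2 fold change of FPKM + 1, stk over DMSO (x axis, bars are SE), for the 21 genes tested in Hepa1-6 (y axis), with transcription factors in blue and secreted proteins in red. Values run from -0.36 for Apob to 0.70 for Foxa2, whose SE is 0.389, and none was called.

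The comparison of each Soat1 hairpin with shLucif in CT26 asks what follows from lower Soat1. Only 4 of the 41 genes reached the minimum for testing. Afp was called higher and Cp lower with all 3 hairpins, and Foxa1 was called higher with sh3. The hairpins share 1 control group, so these are not independent results. Sh1 called 1 gene higher and 1 lower, against 37.8% of 11832 genes called, 19.1% higher and 18.7% lower. Sh2 called 1 higher and 1 lower, against 38.9%, 18.9% higher and 20% lower. Sh3 called 2 higher and 1 lower, against 52.5%, 30.9% higher and 21.6% lower. Shares of this size among all genes mean that so few calls say nothing particular of hepatocyte genes.

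Cp had 0.641, 0.401 and 0.54 FPKM with sh1, 0.461, 0.431 and 0.51 FPKM with sh2 and 0.576, 0.461 and 0.481 FPKM with sh3, against 1.81, 2.12 and 1.74 FPKM with shLucif. Every hairpin library lay below every control library. The log2 fold changes were -0.92 with sh1, -0.98 with sh2 and -0.94 with sh3 (SE 0.0795 each), with limma adjusted p-values of 6.9e-06, 4.46e-06 and 3.35e-06. With a pseudocount of 0.1 in place of 1 they were -1.68, -1.81 and -1.71. Cp levels in unmodified CT26 with DMSO, 0.25, 0.263 and 0.343 FPKM in the separately normalized drug table, were below both.

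Afp had 7.31, 8.43 and 7.42 FPKM with sh1, 7.9, 7.17 and 7.0 FPKM with sh2 and 8.66, 8.38 and 8.16 FPKM with sh3, against 5.04, 5.89 and 6.36 FPKM with shLucif. Again the groups did not overlap with the control. The log2 fold changes were 0.37, 0.31 and 0.48 with sh1, sh2 and sh3 (SE 0.0774 each), with limma adjusted p-values of 0.00325, 0.00887 and 0.000349. Afp stayed far below its level in Hepa1-6 scramble of the same table, which was 144, 128 and 143 FPKM.

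Foxa1 had 9.34, 8.82 and 9.57 FPKM with sh3, against 4.72, 5.24 and 5.64 FPKM with shLucif (log2 fold change 0.73, SE 0.0713, adjusted p = 9.5e-06). With sh1 it had 5.44, 4.58 and 5.17 FPKM and with sh2 4.81, 4.48 and 5.05 FPKM, and both ranges overlap with the control (-0.03 with adjusted p = 0.756 and -0.10 with adjusted p = 0.301). The difference between sh3 and the other hairpins was not tested. Nr1h4 averaged 1.15, 1.2 and 1.31 FPKM with sh1, sh2 and sh3, against 1.14 FPKM with shLucif, and was not called with any of them (adjusted p = 0.945, 0.794 and 0.399). Of the 37 genes below the minimum, Apoa1 was the highest, with 0.292, 0.52 and 1.14 FPKM with sh3, against 0.722, 1.08 and 0.455 FPKM with shLucif. Alb, Fgb, Igfbp1, Apoa2, Onecut1 and Nr5a2 were listed at 0 in all 12 CT26 libraries of the table.

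**Figure D3:**
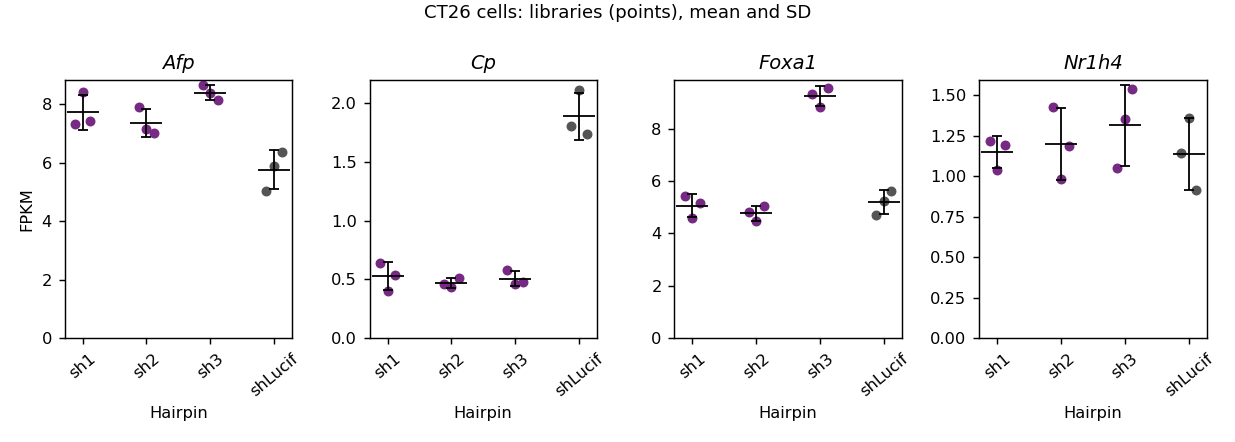
FPKM of Afp, Cp, Foxa1 and Nr1h4 (y axes, each from 0) in CT26 libraries with the Soat1 hairpins sh1, sh2 and sh3 and with shLucif (x axis), as points with mean and SD (n = 3). Cp is lower and Afp higher with each hairpin, Foxa1 is higher with sh3, and Nr1h4 overlaps throughout.

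Scramble and shLucif are both control hairpins in Hepa1-6, and their comparison asks how alike the controls are. The libraries labelled Hepa1-6 shLucif lacked most of the secreted-protein mRNA of the scramble libraries. The 41 genes summed to 1212, 1146 and 1221 FPKM with scramble, against 167, 170 and 167 FPKM with shLucif. With scramble, 22 genes reached 1 FPKM and 5 reached 100 FPKM, and with shLucif 11 reached 1 FPKM and none reached 100 FPKM. These are the libraries that hold genes of both lines, including Soat1 at 12.7 to 13.6 FPKM, and the part of this in the values below was not tested.

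The size of the gap differed widely between genes. Fgb had 17.1, 15.4 and 17.5 FPKM with scramble, against 0, 0.0142 and 0 FPKM with shLucif. Alb had 143, 123 and 140 FPKM with scramble, against 1.78, 1.36 and 1.33 FPKM with shLucif (log2 fold change 5.78, SE 0.088, adjusted p = 2.38e-08). Igfbp1 had 202, 198 and 222 FPKM with scramble, against 3.17, 3.7 and 3.88 FPKM with shLucif (5.51, SE 0.0725, adjusted p = 1.49e-08). All groups of these genes were far apart.

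Hpx had 41.3, 33.7 and 39.4 FPKM with scramble, against 0.263, 0.216 and 0.624 FPKM with shLucif, beside 0.115, 0.0756 and 0.162 FPKM in CT26 shLucif. Afp had 144, 128 and 143 FPKM with scramble, against 7.72, 7.89 and 7.74 FPKM with shLucif (3.99, SE 0.0515, adjusted p = 1.42e-08). Rbp4 had 353, 338 and 343 FPKM with scramble, against 25.9, 26.4 and 24.5 FPKM with shLucif (3.70, SE 0.0386, adjusted p = 9.06e-09). Rbp4, the most abundant gene of the set with scramble, was second in the libraries labelled Hepa1-6 shLucif, after Trf.

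Trf and Foxa2 differed least among the 13 genes at 10 FPKM or more with scramble. Trf had 69, 69.3 and 69.2 FPKM with scramble, against 50.5, 59.1 and 55 FPKM with shLucif (0.33, SE 0.0567, adjusted p = 0.00174). Foxa2 had 28.2, 29.3 and 27 FPKM with scramble, against 24.4, 19 and 22.3 FPKM with shLucif (0.36, SE 0.0885, adjusted p = 0.00997). Itih2 was between, with 110, 108 and 113 FPKM with scramble, against 21.1, 21.6 and 20.8 FPKM with shLucif (2.33, SE 0.0335, adjusted p = 1.83e-08).

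The transcription factors were unequal as well. Hnf4a had 42, 42.8 and 44.7 FPKM with scramble, against 5.06, 5.37 and 5.01 FPKM with shLucif (2.85, SE 0.0445, adjusted p = 2.55e-08). Foxa3 had 14.1, 14.6 and 14.4 FPKM with scramble, against 0.856, 0.703 and 1.03 FPKM with shLucif (3.05, SE 0.0746, adjusted p = 1.44e-07). Cebpa had 12.9, 12.6 and 13.2 FPKM with scramble, against 2.82, 3.11 and 2.47 FPKM with shLucif (1.87, SE 0.0708, adjusted p = 1.03e-06). Nr5a2, Prox1 and Onecut1 averaged 2.04, 1.95 and 2.93 FPKM with scramble, and had at most 0.0149, 0.0446 and 0.148 FPKM in any shLucif library.

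A pair of genes ran the other way. Foxa1 had 2.25, 1.69 and 2.33 FPKM with scramble, against 17.0, 16.2 and 16.3 FPKM with shLucif (-2.51, SE 0.0887, adjusted p = 7.6e-07). Its level in the libraries labelled Hepa1-6 shLucif also exceeded the 4.72 to 5.64 FPKM of CT26 shLucif, so it lay above both other groups. Cp had 1.47, 1.56 and 1.24 FPKM with scramble, against 2.83, 2.36 and 2.51 FPKM with shLucif (-0.56, SE 0.0798, adjusted p = 0.000725), and was likewise above the 1.74 to 2.12 FPKM of CT26 shLucif.

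**Figure D4:**
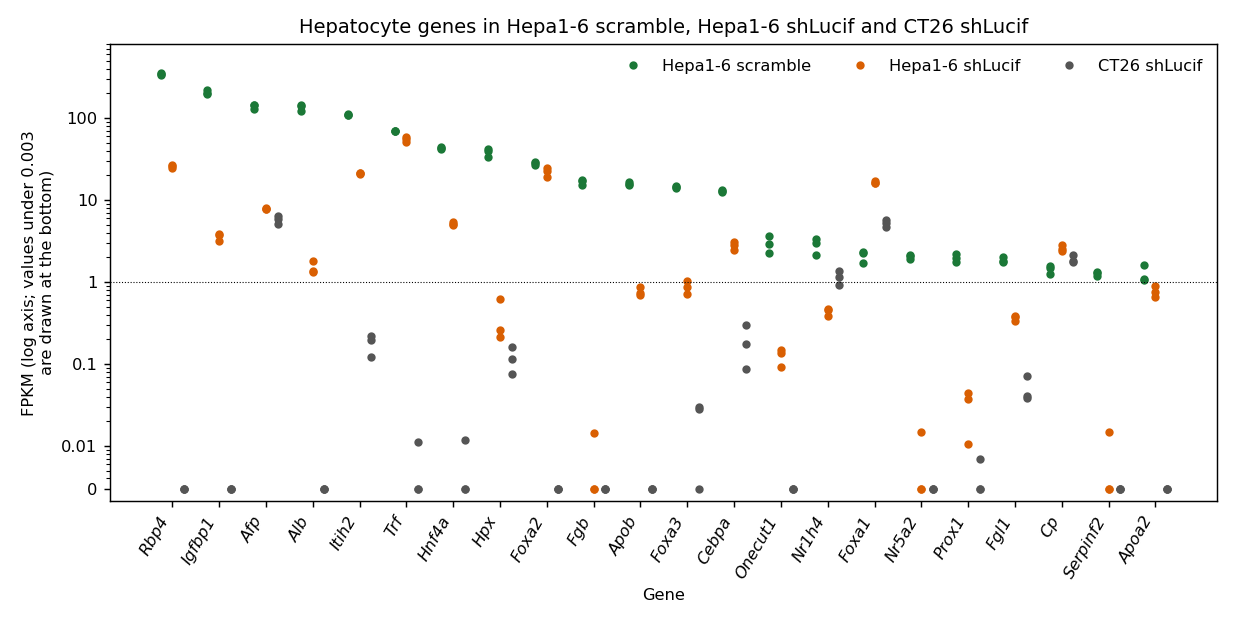
FPKM on a log axis (y) of the 22 genes that reached 1 FPKM in Hepa1-6 scramble (x, ordered by that level), with 1 point per library for Hepa1-6 scramble, the libraries labelled Hepa1-6 shLucif and CT26 shLucif. Trf and Foxa2 lie close together in both Hepa1-6 groups, Fgb, Nr5a2 and Serpinf2 fall to 0 or nearly so with shLucif, and Foxa1 is highest there.

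All 22 genes tested were called between scramble and shLucif, 20 higher and 2 lower with scramble, against 68.2% of 12055 genes in either direction, 31.4% higher and 36.8% lower. At a log2 fold change of 2 or more, 10 genes were higher (Alb, Igfbp1, Hpx, Fgb, Afp, Rbp4, Apob, Foxa3, Hnf4a and Itih2), against 1.73% of all genes. Foxa1 was the single gene at -2 or less, against 2.36% of all genes. Of the 22, only 11 averaged 1 FPKM or more with shLucif. The others passed the minimum through scramble and were likely to differ, so these counts support nothing about the set. Apoa2 was the least stable call, with 1.61, 1.09 and 1.04 FPKM with scramble, against 0.899, 0.746 and 0.663 FPKM with shLucif (0.34, SE 0.11, adjusted p = 0.0294). It lost the call without scramble library 1, without shLucif library 2, without shLucif library 3, and with no filter on low values (adjusted p = 0.0905).

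The mean of the libraries labelled Hepa1-6 shLucif can be placed between CT26 shLucif (0%) and Hepa1-6 scramble (100%) for the 13 genes at 10 FPKM or more with scramble. Trf stood at 79.3% and Foxa2 at 77.7% of the way. Cebpa stood at 20.6%, Itih2 at 19.1% and Hnf4a at 11.9%. Rbp4, Foxa3 and Apob stood at 7.44%, 5.88% and 4.81%. Igfbp1, Afp, Alb and Hpx stood at 1.73%, 1.52%, 1.1% and 0.658%, while Fgb, listed at 0 in 2 of the 3 shLucif libraries, could not be told from 0. The positions of the 13 genes thus differed widely. For the 130 genes of Hepa1-6 outside the lists, the level relative to scramble likewise ran from 2.72% to 61.6% between the tenth and ninetieth percentiles. What lies behind this spread was not tested.

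**Figure D5:**
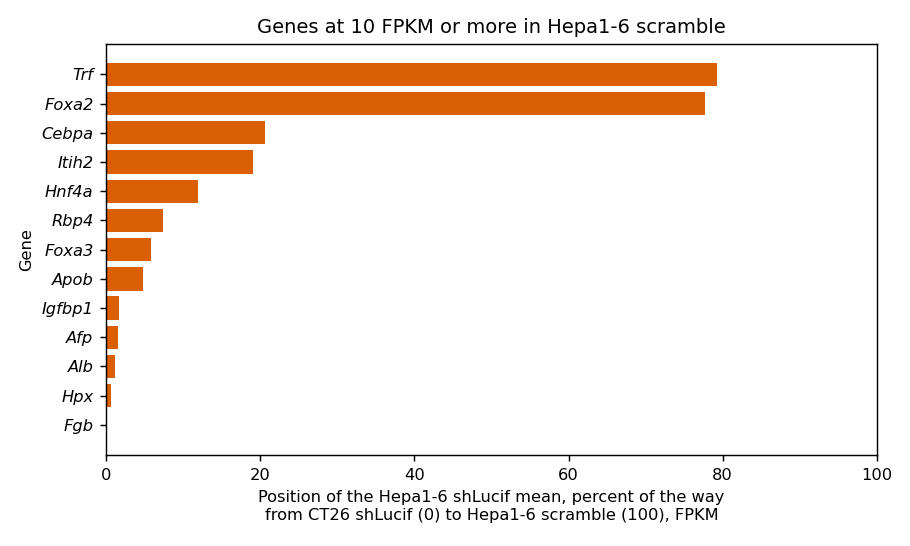
Position of the mean FPKM of the libraries labelled Hepa1-6 shLucif (x axis, percent of the way from CT26 shLucif at 0 to Hepa1-6 scramble at 100) for the 13 genes at 10 FPKM or more in Hepa1-6 scramble (y axis). Bars start at 0 and run from about 0% for Fgb to 79.3% for Trf.

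Against CT26 with the same hairpin, the libraries labelled Hepa1-6 shLucif had 16 genes higher and 1, Nr1h4, lower of 22 tested, against 72.4% of 13129 genes, 39.4% higher and 33% lower. The minimum was applied over all knockdown libraries, and 11 genes averaged at least 1 FPKM in the first group and 4 in the second. Some genes thus entered only through scramble, which is outside this contrast. Others were near 0 in CT26 and were likely to differ, so the count supports nothing about the set. The 5 not called were Fgb, Serpinf2, Onecut1, Nr5a2 and Prox1. With a pseudocount of 0.1, Onecut1 (limma adjusted p = 1.54e-06) and Prox1 (0.34, adjusted p = 0.00773) were called too. Onecut1 was listed at 0 in every CT26 shLucif library. Prox1 was below 0.1 FPKM in every library of both groups, where levels cannot be told from 0. With quantile normalization, Fgl1 lost its call (0.01, adjusted p = 0.776). Nr1h4 had 0.381, 0.457 and 0.47 FPKM in Hepa1-6 shLucif, against 1.14, 1.36 and 0.914 FPKM in CT26 shLucif (-0.57, SE 0.115, adjusted p = 0.000375), and so lay below both lines, since it had 3.32, 3 and 2.15 FPKM in Hepa1-6 scramble. Hpx was called only weakly (0.28, SE 0.106, adjusted p = 0.0271). It lost the call without CT26 shLucif library 1 or 2 or Hepa1-6 shLucif library 3 and with no filter on low values (adjusted p = 0.0684), and had a log2 fold change of -0.01 with quantile normalization.

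Other liver lists were counted between the Hepa1-6 controls as well. Of 13 other secreted hepatocyte proteins tested, 11 were higher and 0 lower with scramble, against 31.4% of all genes higher and 36.8% lower. Genes of this list that passed the minimum only through scramble were likely to differ too. Of 17 other hepatocyte transcription factors tested, 9 were higher and 5 lower with scramble. Apoe had 293 ± 78.4 FPKM with scramble and 17.5 ± 1.79 FPKM with shLucif (SD, n = 3 each). Of 7 intestinal epithelium markers tested, 6 were higher and 1 lower with scramble, and the summed level of all 15 was 452 to 464 FPKM with scramble and 47.1 to 51.8 FPKM with shLucif. Tff3 was listed at 0 in the shLucif libraries, against 77.5 ± 3.04 FPKM with scramble.

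The genes whose log2(FPKM + 1) was most like that of 3 leading members were looked up over the 18 libraries of the knockdown table. Alb was followed most closely by Sgk3, Ksr2, Gm30270, Dennd3 and Bex2 (Pearson's r 0.999 to 1 over 18 libraries). Hnf4a was followed by Jag1, Abcc3, Mob3b, Cxadr and 5730559C18Rik, and Apob by Hydin, Egfr, Hunk and Cpm. Jag1, a Notch ligand, averaged 47.7 FPKM with scramble, 5.63 FPKM with shLucif and 0 FPKM in CT26 shLucif, beside Hnf4a at 43.2, 5.15 and 0.00396 FPKM. The 18 libraries fall into few levels set by the line and the hairpin, so these values describe a shared pattern over 6 groups and no more.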

How the data were processed

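Total RNA was isolated with TRIzol, sequenced in pairs of reads on an Illumina HiSeq (with a SMARTer kit for some samples) and trimmed with Skewer, per the labels' protocols. HISAT2, STAR, edgeR, DESeq2 and the build GRCm38 are named in the submitters' processing notes, with no role; which of them made the values is not given in the sources used here. The authors deposited FPKM, 1 table per experiment with 55335 genes, and the 2 tables were normalized separately. FPKM hold no read totals, so depth is unknown; steps of low values gave a relative depth of 0.892 to 1.121 in the drug table and 0.886 to 1.306 in the knockdown table. Precision rests on 3 libraries per group.

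Of the columns, 30 match labels and were used, the 3 of sh1 by their group only and the others by their sample; 12 columns of the drug table and 9 of the knockdown table match none and were not used. The names of the tables are swapped between experiments, so columns were assigned by their own names. The labels name 45 samples, and 30 libraries were used. The Hepa1-6 Soat1 hairpins were not analysed here. Further samples labelled stk, in both lines, have no matched column and entered no stk test.

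Differences were tested with limma 3.58.1 (mean-variance trend, two-sided) in R 4.3.3 on log2(FPKM + 1), over genes with at least 1 FPKM in 3 libraries of the model, adjusted by Benjamini-Hochberg over all genes tested. Responses to stk, to hairpins and to scramble came from 1 model per line, and contrasts between lines from 1 model per table. With 3 libraries against 3, the smallest two-sided p of an exact permutation test is 0.1, so none was used. The procedure was tested on simulated data. Promoter strings were searched in RefSeq promoters, and coordinates come from GENCODE M21 on GRCm38. All members may be named; genes of other lists are named where they lead their list, and the 5 genes most like each of Alb, Hnf4a and Apob by correlation, except that some items are not reported here. The members, lists and tests were chosen with earlier results of these data known. Alternatives were pseudocount, filter, quantile normalization, a replicate block, 1 model over the table, leaving out libraries and, chosen after seeing the data, a model with no Hepa1-6 shLucif library.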

Additional observations from a re-analysis of the deposited data

How the results depend on the processing

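Of 1732 recomputed fold changes of single genes, 1715 kept their direction and call. Counts of called members moved by more than 1.5 times in these cases. In Hepa1-6, stk called 1 member with quantile normalization (Onecut1) and 4 in 1 model over all libraries of the table (Apob, Igfbp1, Fgl1 and Onecut1, which used 12822 genes and more residual degrees of freedom). With a filter of 5 FPKM, which tests fewer genes, sh1 called 1 member, sh2 called 1, scramble against shLucif called 14 and Hepa1-6 scramble against CT26 shLucif called 14. Smaller moves were 14 (filter of 5 FPKM) and 27 (no filter) against 21 for Hepa1-6 with DMSO against CT26, 30 (no filter) against 22 for Hepa1-6 scramble against CT26 shLucif, and 13 (5 FPKM), 15 (quantile normalization), 16 (no filter) and 19 (pseudocount 0.1) against 17 for Hepa1-6 shLucif against CT26 shLucif. The filter of 5 FPKM gave 2 against 3 for sh3, and no filter 3 against 2 for sh1 and sh2 and 23 against 22 for scramble against shLucif. Hpx in Hepa1-6 shLucif against CT26 shLucif had a value of -0.0106 with quantile normalization (adjusted p = 0.934), and the cause was not tested. Leaving out a library gave 21 to 22 calls for scramble against shLucif and 16 to 17 for Hepa1-6 shLucif against CT26 shLucif, and left the other counts as they were. With 5 and 0.5 FPKM as limits in place of 10 and 0.1, the libraries labelled Hepa1-6 shLucif held 43.2% of the CT26 genes at the high level, against 33.1%.

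Libraries with the same replicate number shared little deviation from their group means, with correlations between -0.076 and 0.128. Whether they were prepared together is unknown, and these correlations cannot decide it. With the replicate number as a block, stk still called 0 members in both lines, and the other comparisons that could be blocked kept their counts of 21, 2, 3, 22, 22 and 17 members. Over all genes, the block left 4 calls with stk in each line, against 175 in Hepa1-6 and 85 in CT26, and leaving out a library left 7 to 58 and 4 to 94. The shares of all genes called with stk printed above are therefore themselves unstable. The columns of sh1 carry no number of the labels, so no block was made there. With unknown depth, levels below about 0.1 FPKM cannot be told from 0.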
